A study of Bos taurus with 6 samples.

Results

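*COL1A1* (ENSBTAG00000013103), *COL1A2* (ENSBTAG00000013472) and *COL3A1* (ENSBTAG00000021466) are 3 of the 27607 bovine gene identifiers counted in cultured satellite cells (SCs) and fibro-adipogenic progenitors (FAPs). They encode fibrillar collagen chains. The genes were chosen from the read counts of these same libraries, with their difference between FAPs and SCs already known, so their levels and that difference are given as a description and carry no test. All 3 passed the filter on low counts, as did 14039 identifiers in all. The deposited table lists identifiers without names, and the symbols were taken from the list that defined the genes. No position is given, since the gene annotation used here is of another assembly (ARS-UCD2.0) than the counts.

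Both cell types came from the semitendinosus muscle of slaughtered Belgian Blue cattle, of both sexes and aged from 1 to 7 years in the study as a whole. Surface CD56 set the cell types apart, present on SCs and absent on FAPs, among CD29+ cells that lacked CD31 and CD45. No cells received a treatment. RNA was taken after 72 h in growth medium (Ham's F-10 with 20% foetal bovine serum, antibiotics and 5 ng/ml bFGF), from 2000 cells seeded per cm2. The flasks of both cell types were coated with bovine collagen protein, and the muscle had been dissociated with collagenase. Each cell type had 3 libraries with the letters A, B and C, and the labels do not say whether a letter stands for an animal or a culture, so that SDs cover the spread between these libraries, which may be technical. Library totals ran from 22737901 to 37791193 counts in FAPs and from 19666738 to 30115337 in SCs. The markers that define FAPs and SCs could not be checked here, as no other identifier was paired with a name. The study itself reported marker differences between these cell types by RT-qPCR, RNA sequencing and flow cytometry.

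Fibrillar collagens are the rope-like proteins that give connective tissue its tensile strength. Each chain carries a long run in which glycine recurs at a fixed spacing, and chains wind around one another into a helix that is secreted as procollagen, trimmed outside the cell and packed into fibrils. *COL1A1* and *COL1A2* encode the α1 and α2 chains of type I collagen, the main collagen of tendon, bone and skin, in which α1 chains outnumber α2 chains. *COL3A1* encodes the α1 chain of type III collagen, which is built from that chain alone and is found with type I in the soft sheaths around muscle fibres and vessels. In muscle, fibroblasts and FAPs of the interstitium are known as the main makers of these proteins, and satellite cells are the stem cells of the muscle fibre itself.

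In FAPs the collagen genes took 15.1% ± 0.762 (SD, n = 3) of all counted reads, and in SCs 2.80% ± 0.183 (SD, n = 3). *COL3A1*, the type III chain, held 7.28% of the counts of FAPs A, 7.02% of FAPs B and 6.80% of FAPs C, against 1.12% of SCs A, 1.13% of SCs B and 1.07% of SCs C. Its mean share was 7.03% ± 0.239 (SD, n = 3) in FAPs and 1.11% ± 0.0356 (SD, n = 3) in SCs, a 6.35-fold difference. The lowest FAP library thus stood far above the highest SC library, and the libraries of each cell type lay close to one another.

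*COL1A2*, the α2 chain of type I collagen, held 5.01% (A), 4.78% (B) and 4.48% (C) of the FAP counts and 1.32% (A), 1.38% (B) and 1.21% (C) of the SC counts. Its means of 4.76% ± 0.268 and 1.30% ± 0.0849 (SD, n = 3 each) differed 3.65-fold, the least of the collagen genes. *COL1A1*, the α1 chain, held 3.62% (A), 3.20% (B) and 3.12% (C) in FAPs and 0.414% (A), 0.432% (B) and 0.316% (C) in SCs. Its means were 3.31% ± 0.270 and 0.388% ± 0.0625 (SD, n = 3 each), an 8.54-fold difference and the widest of the collagen genes. For 3 of 3 genes every FAP library lay above every SC library, and the same held for 18.6% of all tested genes on this scale. The shares rest on between 85031 reads (*COL1A1* in SCs B) and 2749706 reads (*COL3A1* in FAPs A). Counting error was far smaller than these gaps, as no 95% Wilson interval of a share in a single library was wider than 0.014 percentage points to either side. Such intervals cover counting error only, because reads from PCR-amplified libraries are not independent molecules.

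**Figure D1:**
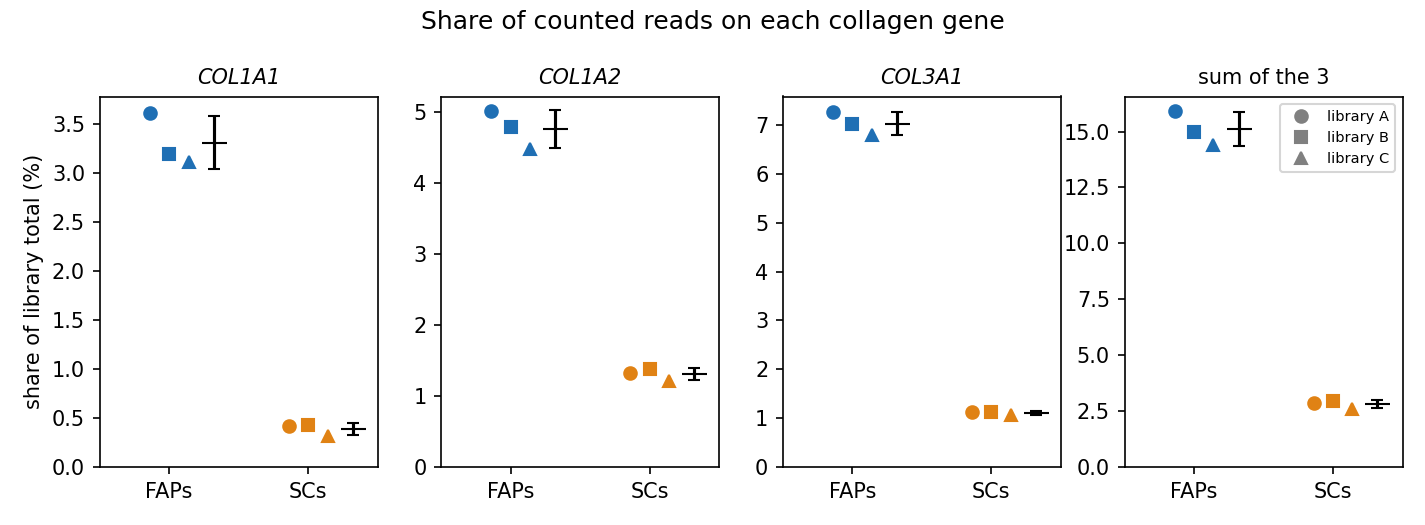
Share of the library total (%, y axis starting at 0, scaled separately in each panel) on *COL1A1*, *COL1A2*, *COL3A1* and their sum in FAPs (blue) and SCs (orange). Symbols are single libraries by letter and the black bar is the mean ± SD of 3 libraries. In each panel the FAP libraries lie above the SC libraries, with sums from 14.4% to 15.9% in FAPs and from 2.59% to 2.94% in SCs.

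The collagen genes headed the FAP libraries. In each of them *COL3A1* ranked 1, *COL1A2* ranked 2 and *COL1A1* ranked 3 by read count among 27607 identifiers. The most counted other gene held between 1.85% and 2.11% of a FAP library, so that *COL3A1* had 3.36 to 3.67 times its count. In SCs another gene, with 1.40% to 1.42% of the counts, ranked 1. *COL1A2* followed at rank 2 and *COL3A1* at rank 3 in every SC library, and *COL1A1* stood at rank 13, 12 and 13 in SCs A, B and C. SC cultures were therefore not low in *COL1A2* and *COL3A1* reads relative to their other genes, although both held a several-fold smaller share than in FAPs.

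The weight of the collagen genes in FAPs can also be read from the genes next to them. Between 29 and 39 of the most counted other genes were needed to match the summed collagen count of a FAP library, and 3 or 4 in an SC library. In FAPs, *COL1A1*, *COL1A2* and *COL3A1* made up 63.9% to 66.2% of the reads on the 10 most counted genes. In SCs, *COL1A2* and *COL3A1* were the collagen genes in that group and made up 29.5% to 31.5% of it. With the collagen reads set aside, the 10 most counted other genes took 11.0% ± 0.115 of the remaining reads in FAPs and 6.46% ± 0.0944 in SCs (SD, n = 3 each), so that a difference in concentration was also present without them.

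**Figure D2:**
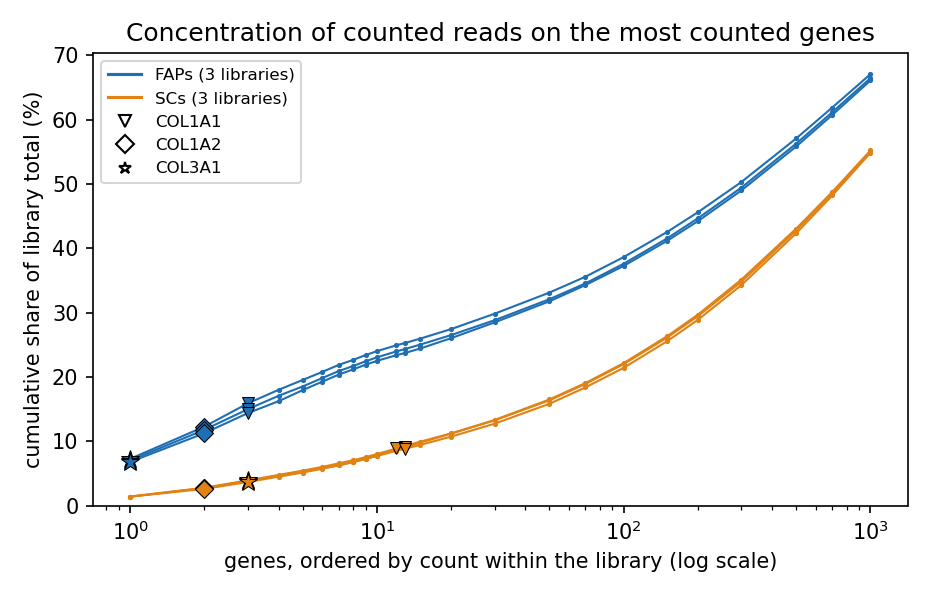
Cumulative share of the library total (%, y axis) over genes ordered by count within each library (x axis, log scale), for 3 FAP (blue) and 3 SC (orange) libraries. Marked points show where *COL1A1*, *COL1A2* and *COL3A1* fall; in FAPs they are the first 3 genes, and in SCs *COL1A1* falls at rank 12 or 13.

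Shares of a total depend on one another, so the levels were also set on TMM-adjusted CPM, which are library-scaled counts (CPM) after edgeR's factors put most genes of both cell types on a common scale. On that scale *COL3A1* had 89004, 84093 and 80976 CPM in FAPs A, B and C and 9374, 9380 and 8835 CPM in SCs A, B and C. The log2 fold change, FAPs minus SCs, was 3.20 for *COL3A1* (9.21-fold, standard error 0.0489 from the log2 CPM of 3 libraries per cell type). *COL1A1* had 44274, 38304 and 37134 CPM in FAPs A, B and C and 3466, 3575 and 2618 CPM in SCs, a log2 fold change of 3.63 (12.4-fold, standard error 0.163). Of the collagen genes *COL1A1* thus had the lowest count in both cell types and the highest fold change.

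*COL1A2* had 61280, 57261 and 53314 CPM in FAPs A, B and C and 11080, 11386 and 10026 CPM in SCs, a log2 fold change of 2.40 (5.29-fold, standard error 0.0805). Its level in SCs was 18.9% of that in FAPs, where *COL3A1* stood at 10.9% and *COL1A1* at 8.07%. At a false discovery rate below 0.05 and an absolute log2 fold change above 1, the cutoffs named in the study's methods, the quasi-likelihood fit of edgeR called 3 of 3 collagen genes higher in FAPs, as it did 14.5% of all tested genes. On TMM-adjusted CPM the FAP libraries lay above the SC libraries for 3 of 3, and for 36.5% of tested genes. Since the genes were picked with this contrast known, nothing is read from these counts. Fewer collagen-making cells and less collagen RNA per cell cannot be told apart in such bulk libraries.

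By fold change alone the collagen genes were not at the edge of the data. A larger log2 fold change was fitted for 403 tested genes than for *COL1A1* (2.87% of those tested), for 505 than for *COL3A1* (3.60%) and for 766 than for *COL1A2* (5.46%). By the gain in share they came first. *COL3A1* gained 5.92 percentage points from SCs to FAPs, *COL1A2* 3.45 and *COL1A1* 2.92, and the next gene gained 1.49. All identifiers with a larger share in FAPs gained 30.7 points in sum, of which the collagen genes held 12.3 points or 40.1%. *COL3A1* alone held 19.3% of the gain, *COL1A2* 11.2% and *COL1A1* 9.53%. Among the 100 most counted tested genes, the collagen genes included, TMM factors gave 33 calls with more in FAPs and 2 with more in SCs. Over all 14039 tested genes the numbers were 2035 and 1908. Library totals gave 23 and 8 among the 100, and 1286 and 3794 over all. The 100 genes were picked by share summed over all libraries, so that genes could enter through FAPs. Nothing is therefore read from the direction of their calls.

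**Figure D3:**
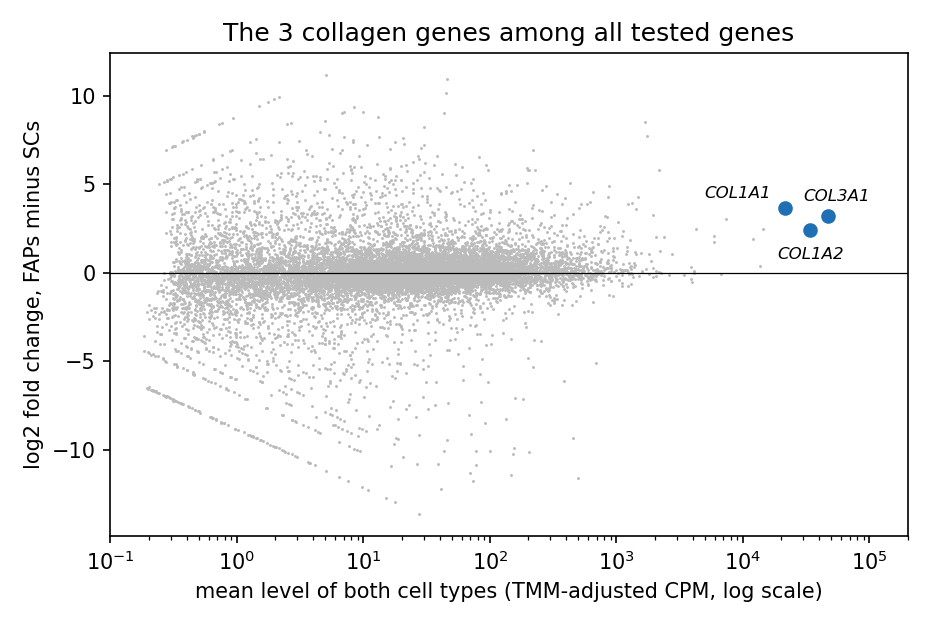
Log2 fold change, FAPs minus SCs (y axis), against the mean TMM-adjusted CPM of both cell types (x axis, log scale) for 14039 tested genes (grey) and the collagen genes (blue). *COL1A1*, *COL1A2* and *COL3A1* lie at the right end, at log2 fold changes of 3.63, 2.40 and 3.20, while larger fold changes occur at lower levels.

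The cell types differed in the proportions of the chains as well as in the amount. Ratios between the genes are ratios of read counts that were not divided by transcript length, as no table of lengths matched the identifiers. They therefore do not give molecules of one chain per molecule of another, but the change of a ratio from one cell type to the other does not depend on a length that is the same in both. It does not depend on the library scaling either, because both genes are counted in the same library.

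Within type I collagen, the count ratio of *COL1A1* to *COL1A2* was 0.722, 0.669 and 0.697 in FAPs A, B and C and 0.313, 0.314 and 0.261 in SCs A, B and C. The means were 0.696 ± 0.0268 in FAPs and 0.296 ± 0.0302 in SCs (SD, n = 3 each), so that the α1 chain was 2.35 times as high relative to the α2 chain in FAPs. The lowest FAP ratio was more than 2 times the highest SC ratio, and in all 6 libraries *COL1A1* had fewer reads than *COL1A2*. This corresponds to a difference of 1.23 between the log2 fold changes of *COL1A1* and *COL1A2*, under TMM factors and under library totals alike.

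The order of *COL3A1* and *COL1A2* turned between the cell types. The count ratio of *COL3A1* to *COL1A2* was 1.45, 1.47 and 1.52 in FAPs A, B and C and 0.846, 0.824 and 0.881 in SCs A, B and C. *COL3A1* reads thus exceeded *COL1A2* reads in every FAP library and fell short of them in every SC library. The means of 1.48 ± 0.0346 and 0.850 ± 0.0289 (SD, n = 3 each) differed 1.74-fold. The ratio of *COL3A1* to *COL1A1* went the other way, at 2.01, 2.20 and 2.18 in FAPs and 2.70, 2.62 and 3.38 in SCs. Its means were 2.13 ± 0.103 and 2.90 ± 0.412 (SD, n = 3 each), and the ranges did not overlap, although SCs C stood apart from SCs A and B.

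Taken as type III against type I, the ratio of *COL3A1* to the sum of *COL1A1* and *COL1A2* was 0.873 ± 0.0268 in FAPs and 0.657 ± 0.0374 in SCs (SD, n = 3 each). Of the collagen reads in FAPs, 46.6% ± 0.767 fell on *COL3A1*, 31.5% ± 0.386 on *COL1A2* and 21.9% ± 0.750 on *COL1A1* (SD, n = 3). In SCs, 46.6% ± 0.239 fell on *COL1A2*, 39.6% ± 1.35 on *COL3A1* and 13.8% ± 1.39 on *COL1A1* (SD, n = 3). The chain with the most reads was *COL3A1* in FAPs and *COL1A2* in SCs, and *COL1A1* had the fewest in both.

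**Figure D4:**
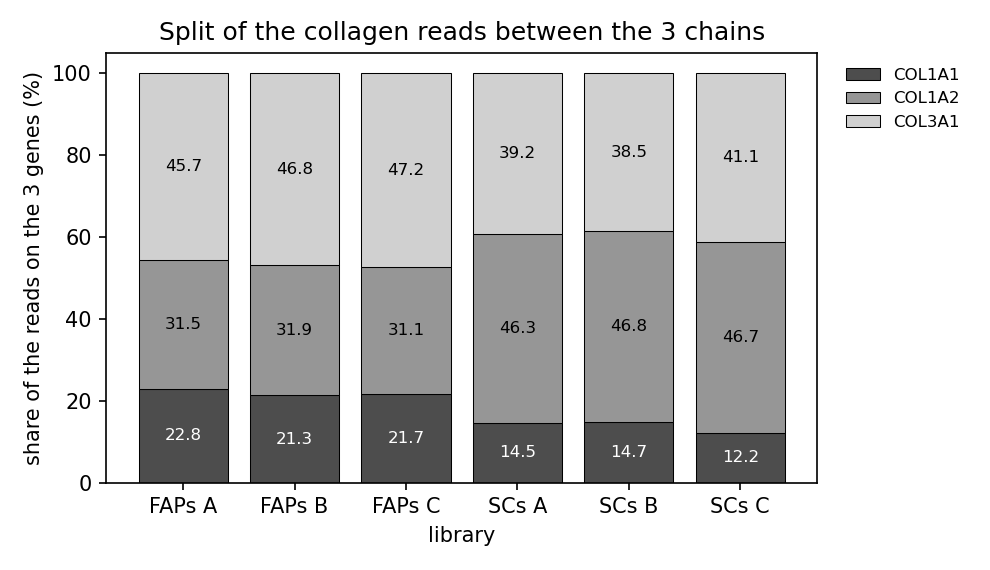
Split of the reads on the 3 collagen genes in each library (stacked bars, % of their summed reads, y axis from 0 to 100; the printed values are the percentages). *COL1A2* takes 31.1% to 31.9% in FAPs and 46.3% to 46.8% in SCs, and *COL1A1* 21.3% to 22.8% and 12.2% to 14.7%.

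Over all 3 libraries of a cell type, *COL1A1* varied more than the other chains. The coefficient of variation of TMM-adjusted CPM was 9.60% in FAPs and 16.3% in SCs for *COL1A1*, 6.95% and 6.59% for *COL1A2*, and 4.78% and 3.40% for *COL3A1*. Among the 100 most counted tested genes the median was 3.77% in FAPs and 5.05% in SCs, and 95 of these genes in FAPs and 90 in SCs varied less than *COL1A1*. *COL3A1* lay nearer the middle, with 65 and 26 of these genes below it. Counting error alone would give at most 0.34% for any collagen gene in any library. Each library was then left out in turn, an alternative chosen after seeing the data. Each such value rests only on the libraries left in that cell type. Without SCs C the SC value was 2.20% for *COL1A1*, with 22 of the 100 genes below it, 1.92% for *COL1A2* and 0.0447% for *COL3A1*. The last comes from 9374 CPM in SCs A and 9380 CPM in SCs B. It lies below their counting errors of 0.18% and 0.21%, so it is no measure of spread. Without FAPs A the FAP value was 2.19% for *COL1A1*, with 32 of the 100 genes below it, 5.05% for *COL1A2* and 2.67% for *COL3A1*, so that *COL1A1* no longer varied the most in FAPs.

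The chains deviated in the same direction within a cell type. In FAPs, library A was the highest and library C the lowest for 3 of 3 genes. In SCs, library C was the lowest for 3 of 3, by 0.28 on the log2 scale below the SC mean for *COL1A1*, 0.11 for *COL1A2* and 0.06 for *COL3A1*. FAPs A lay above the FAP mean by 0.15, 0.10 and 0.07 for *COL1A1*, *COL1A2* and *COL3A1*. Library C was the lowest in both cell types at once for the collagen genes, and for 18.8% of all tested genes. The share of tested genes with these orders within a single cell type was not counted. Nothing about the collagen genes is therefore read from the orders. The coefficients of variation of the ratios were 3.85% in FAPs and 10.2% in SCs for *COL1A1* to *COL1A2*, 2.34% and 3.40% for *COL3A1* to *COL1A2*, and 4.83% and 14.2% for *COL3A1* to *COL1A1*.

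The collagen reads moved the scaling of the whole libraries where totals were used. Without *COL1A1*, *COL1A2* and *COL3A1*, 84.9% of the counts were left in FAPs and 97.2% in SCs (means of 3 libraries). A gene with the same share of the remaining reads in both cell types would come out 12.7% lower in FAPs, or -0.20 on the log2 scale, when divided by the full total. Over all tested genes, the median log2 fold change was -0.57 with library totals, with the collagen reads removed from the totals it was -0.37, and with TMM factors it was -0.03. The collagen genes thus accounted for 36.5% of the distance between library totals and TMM factors, and reads on other genes for the rest.

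The direction of the calls moved with it. Library totals gave 1286 genes with a call towards FAPs and 3794 towards SCs, 25.3% of the calls being towards FAPs. With totals that left out the collagen reads the numbers were 1504 and 2832, or 34.7%. With TMM factors they were 2035 and 1908, or 51.6%. The TMM factors changed little without the collagen genes (from 1.195 to 1.196 in SCs A, for example). The mean factor was 0.831 in FAPs and 1.20 in SCs with or without *COL1A1*, *COL1A2* and *COL3A1*, and the same 3943 genes were called. Nothing is read from that likeness. TMM sets aside the most counted genes before it forms a factor, and the library totals in this fit still held the collagen reads. The collagen log2 fold changes on library totals were 3.10 for *COL1A1*, 1.87 for *COL1A2* and 2.67 for *COL3A1*. From TMM factors to library totals the median of all tested genes moved by -0.54. That is far less than the collagen fold changes, so their direction could not turn between these scalings.

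**Figure D5:**
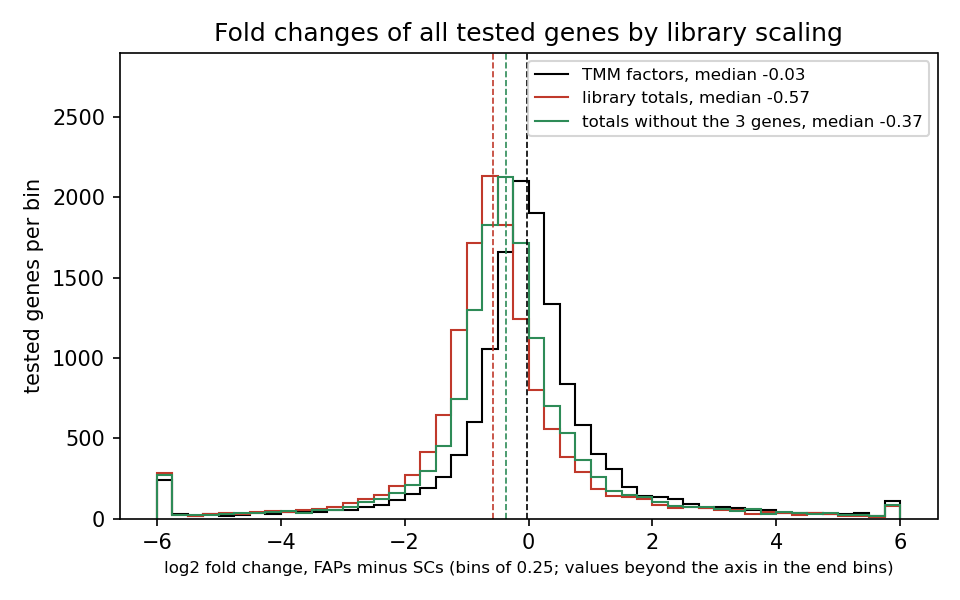
Number of tested genes per bin of log2 fold change, FAPs minus SCs (x axis, bins of 0.25, with values beyond the axis placed in the end bins), under TMM factors (black), library totals (red) and totals without the reads on *COL1A1*, *COL1A2* and *COL3A1* (green). Dashed lines are the medians of -0.03, -0.57 and -0.37; removal of the collagen reads moves the red curve part of the way to the black one.

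Likeness of profile over the libraries was measured as the root-mean-square distance between log2 TMM-adjusted CPM of a gene and the mean of the collagen genes, each centred on its own mean over the 6 libraries, for 9507 other genes of at least 10 CPM in the higher cell type. The nearest were ENSBTAG00000021127, at a distance of 0.0650, and ENSBTAG00000006354, at 0.0656. They were counted at 14.8 ± 0.274 and 15.9 ± 1.01 CPM in FAPs and 1.72 ± 0.224 and 1.89 ± 0.303 CPM in SCs (SD, n = 3 each), so that they met the minimum of 10 CPM through FAPs alone. *COL3A1* itself lay 0.0787 from the mean profile, *COL1A1* 0.288 and *COL1A2* 0.340, and 5, 128 and 171 other genes lay nearer to it than these. *COL1A1* and *COL1A2* were thus farther from the mean of their own group than 128 and 171 of the 9507 other genes. They were nearer to it than most, and their fold changes lie on either side of it. This distance is mostly set by the fold change between cell types, and with profiles scaled to unit variance the named genes came only 54th and 61st.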

How the data were processed

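Poly(A) RNA of 3 FAP and 3 SC libraries was sequenced as single-end reads of up to 75 bp from a stranded kit. Alignment by the authors used STAR 2.7 and the build bosTau9, and featureCounts gave counts per Ensembl gene. Raw, unfiltered counts were deposited. Settings for strand, multi-mapping and overlapping genes are not given in the sources used here, so reads shared with similar or antisense genes are uncertain. No column was left unmapped.

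From the deposited counts, filterByExpr (minimum count 10), TMM factors and the quasi-likelihood fit of edgeR 4.0.16 (R 4.3.3; prior count 0.125; cell type as the only term) were applied to the whole table. The study used limma, run here as limma-voom (3.58.1), beside DESeq2 1.42.0, other scalings and filters, thinning, a replicate block and each library left out. The fits were tried on simulated data with equal numbers of raised and lowered genes. Those data were not built with a few dominant genes in a single cell type, so they do not test the scaling described here. Shares carry Wilson intervals at 95%.

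The genes, gene lists and settings were chosen with earlier results of these data known. The rule for named genes took the 3 collagen genes and the 2 nearest in profile. Lists of other collagen genes, processing enzymes and cell type markers had been drawn up, but the RefSeq table (37063 genes, ARS-UCD2.0) matched 0 identifiers, so they were not used. No sequence is shown, as none was in the files used here.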

Additional observations from a re-analysis of the deposited data

How the results depend on the processing

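The log2 fold changes of *COL1A1*, *COL1A2* and *COL3A1* stayed positive and past the cutoffs in 54 of 54 values from alternative fits. In the main fit 14.5% of all tested genes were called higher in FAPs. The genes were chosen from this contrast and all fits reuse the same libraries, so the count is a description and no test. A move of a log2 fold change is counted where it exceeds the SD between libraries, taken over both cell types together. For the median of all tested genes the bound is 0.00802, the SD of its values with each library left out. Numbers of calls are compared by their ratio. With library totals they were 3.10, 1.87 and 2.67, with totals lacking the collagen reads 3.29, 2.06 and 2.86, and with upper-quartile factors that of *COL3A1* was 3.10. The median of all tested genes (-0.03) was -0.57, -0.37 and -0.14 under these settings, -0.07 without a filter, and -0.03 with RLE factors and with DESeq2. With each library left out in turn it ran from -0.04 to -0.02. Library totals gave 1286 calls higher in FAPs and 3794 higher in SCs. The changes under totals follow from the different denominators.

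On TMM-adjusted library sizes the FAP shares were 3.99% (*COL1A1*), 5.73% (*COL1A2*), 8.47% (*COL3A1*) and 18.2% (sum), and the SC shares 0.322%, 1.08%, 0.920% and 2.32%. Of totals without the collagen reads they were 3.90%, 5.60%, 8.28% and 17.8% in FAPs. The count ratios moved by less than the SD between libraries when counts were summed. The same held when counts were thinned or a library was left out, but nothing is read from any of these. A ratio of summed counts is a weighted mean of the ratios of single libraries and lies within their range. Thinning hardly changes counts this large, and leaving out 1 of 3 libraries cannot move a mean by as much as the SD.

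Deviations of same-lettered libraries from their cell type mean had correlations of 0.322 (A), 0.0246 (B) and 0.260 (C) across genes. Libraries of different letters were not compared, so these values cannot decide whether the letters are pairs. The main fit left the letter out because the labels do not say what it stands for. With the replicate block the log2 fold changes were 3.64, 2.40 and 3.20, and 2045 genes were called higher in FAPs and 1897 in SCs. With each library left out in turn, a choice made after seeing the data, the coefficient of variation ran from 2.19% to 12.4% (*COL1A1*), 4.79% to 9.83% (*COL1A2*) and 2.67% to 6.68% (*COL3A1*) in FAPs, and from 2.20% to 21.9%, 1.92% to 8.98% and 0.0447% to 4.23% in SCs. The value of 0.0447% lies below counting error. Ranks per gene length were not run, because no lengths matched.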
